A study of Mus musculus with 67 samples.

Results

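Conventional CD4+ T cells (Tconv) of the hypothalamus were compared between male C57Bl/6J mice on a high-fat, high-sugar (HFHS) diet and mice on standard diet (SD). The members are all libraries that the labels place in hypothalamus, C57Bl/6J and activated Tconv, 4 HFHS and 4 SD libraries, 8 of the 67 in the series. The series profiles regulatory T cells (Tregs) and activated Tconv from hypothalamus and the rest of the brain by bulk RNA sequencing, with diet, strain and tissue as the variables. A pilot part from hypothalamus adds CD4+ T cells, CD4+ CD44− naive T cells and genetically obese ob/ob mice. Mice carried a Foxp3GFP reporter, which marks Tregs, and the diets began at 6 weeks of age; how long this experiment ran is not stated in the sources used here. Cells of several mice were pooled per library, as the study's methods state, and the gate included live, CD4+, CD25−, Foxp3GFP− and CD44hi. Both groups thus share strain, sex, reporter and gate and differ by diet, and each library is 1 pool, numbered by its replicate in the labels.

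Antigen-experienced CD4+ T cells keep high CD44 and can enter tissues, where they persist as resident cells or respond to antigen by dividing and secreting cytokines. Dividing T cells first transcribe the genes of DNA replication, driven by E2F factors, and later the genes of the mitotic spindle, whose promoters carry CCAAT boxes and cell-cycle homology regions (CHR). In the hypothalamus, which controls feeding and energy balance, a diet rich in fat and sugar is known to activate glia, and T cells there are few.

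The libraries held 19371866, 18231547, 19274585 and 13196689 estimated counts in HFHS pools 1 to 4 and 17614697, 20538309, 17955067 and 18149840 in SD pools 1 to 4; all lists of 8 values below keep this order. HFHS pool 4 had the lowest total. Genes with more than 10 counts numbered 9477, 9263, 9507 and 9310 against 9261, 9682, 9018 and 10006, so SD pool 3 held the fewest and SD pool 4 the most. Neither the total (exact two-sided permutation p = 0.714), nor the number of genes (exact p = 0.743), nor the share of counts on the 100 most abundant genes (exact p = 0.857) differed between diets beyond the spread of pools, with an adjusted p of 0.857 for each of these 3 exact tests. Levels are given as counts per 1000000 after TMM scaling (CPM); a count of 0 allows up to 0.148 to 0.228 CPM, the level of 3 counts, and this limit covers counting error only.

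Markers of the label were present in every pool. Cd3e, a chain of the T-cell receptor complex, stood at 2560, 2521, 2240 and 2206 CPM in HFHS pools and 2351, 2428, 2159 and 1689 CPM in SD pools. Cd44, the gated activation marker, stood at 196, 116, 149 and 139 CPM against 140, 149, 123 and 184 CPM. Both genes were well expressed throughout, with overlapping groups. Foxp3, the lineage factor of Tregs, was low at 4.5, 7.54, 13.8 and 3.19 CPM against 6.35, 3.4, 11 and 3.2 CPM. The Y-linked genes Ddx3y, Eif2s3y, Kdm5d and Uty were present in all 8 libraries, and Xist, the transcript of the inactive X chromosome, did not pass 0.207 CPM.

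The CD4 label did not hold evenly. Cd4, the coreceptor that the cells were sorted on, stood at 287, 169, 148 and 278 CPM in HFHS pools and 237, 314, 269 and 755 CPM in SD pools. Cd8a, a coreceptor chain of cytotoxic T cells, stood at 36.2, 326, 91.3 and 0 CPM against 0, 326, 0 and 77.9 CPM. Its partner chain Cd8b1 stood at 80.7, 289, 147 and 22.3 CPM against 14.8, 296, 8.65 and 87.9 CPM. HFHS pool 2 and SD pool 2 carried the most Cd8a and Cd8b1, and HFHS pool 4, SD pool 1 and SD pool 3 the least. By length-scaled level (transcripts per 1000000, TPM), Cd8b1 reached 274 in HFHS pool 2, where Cd4 stood at 66.7 TPM. In SD pool 2, Cd8b1 stood at 283 TPM and Cd4 at 125 TPM. The fold changes named below were therefore also computed without these 2 libraries, a choice made after the data were seen. HFHS pool 3, with Cd8b1 at 144 TPM and the lowest Cd4 at 148 CPM, was kept there.

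SD pool 4 stood apart in another way. Weighted by counts, the mean length of its transcripts was 2874 bases, against 2388 to 2565 bases in the other 7 libraries. Transcripts under 1000 bases took 12.1% of its counts, against 17.7% to 21.9% elsewhere. Tmsb4x, which encodes a short actin-binding peptide and was the most abundant gene of every library, took 1.32% of counts in SD pool 4 and 1.87% to 2.69% in the rest.

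No gene passed the test between the diets. Of 9714 genes tested, 0 (0%) had an edgeR adjusted p under 0.05, and 199 (2.05%) had an unadjusted p under 0.05. Of these, 94 (0.968%) were higher and 105 (1.08%) lower in HFHS pools. DESeq2 called 14 genes (0.144%) and limma-voom with quality weights 0, and edgeR called 0 without HFHS pool 2 and SD pool 2. Fold changes split evenly, 4747 genes (48.9%) being above 0 in log2. These p-values rest on a spread between pools that is partly estimated across genes, not on the spread of each gene alone. The share under 0.05, 2.05%, was below that level itself, and the median unadjusted p over all genes was 0.603. With 4 pools a side, few differences can be called.

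Among the genes with the smallest p, several were read in all pools of one diet and in almost none of the other. The filter on low counts needs at least 4 libraries over its minimum. A gene at or near 0 in all 4 pools of one diet was tested only if every pool of the other diet passed. For such genes, here and in the next paragraph, presence in every pool of the other diet follows from the filter. It is not a separate result. Arhgap11a, a GTPase-activating protein made in dividing cells, stood at 13, 24.9, 18.8 and 16.6 CPM in HFHS pools and 0.0588, 0.0986, 0 and 0.155 CPM in SD pools. Pop1, a protein subunit of the RNase P and MRP complexes, stood at 18.8, 5.21, 5.09 and 19 CPM in HFHS pools and at 0 in all 4 SD pools. Atg9a, a lipid scramblase of autophagosome formation, stood at 37.3, 54.2, 35.3 and 57.4 CPM against 0.47, 3.94, 1.94 and 6.72 CPM. All 3 genes were higher in every HFHS pool than in any SD pool. The log2 fold change was 7.74 (SE 1.50) for Arhgap11a and 3.81 (SE 0.87) for Atg9a, and Pop1 was at least 74.5-fold higher. Rif1, a regulator of replication timing and of DNA break repair, stood at 110, 110, 120 and 240 CPM against 39.7, 52.2, 68 and 42.3 CPM, again with no overlap and with HFHS pool 4 highest.

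In the opposite direction, Rab39b, a small GTPase of vesicle traffic, was at 0 in all 4 HFHS pools and stood at 11, 17.9, 6.43 and 6.41 CPM in SD pools, at least 58.7-fold lower under HFHS diet. Snx21, a sorting nexin, was likewise at 0 in HFHS pools and stood at 4.29, 2.91, 8.76 and 5.17 CPM in SD pools, at least 29.7-fold lower. Mars2, the mitochondrial methionyl-tRNA synthetase, stood at 0, 0.166, 0.052 and 0 CPM against 15.9, 17.1, 7.65 and 13.2 CPM. Phlpp2, a phosphatase of Akt kinases, stood at 0.0536, 0, 0 and 0 CPM against 6.52, 7.89, 5.27 and 1.55 CPM, lower in each HFHS pool. None of these passed 17.9 CPM in any pool. Better expressed was Cmtm6, which protects PD-L1 from degradation at the cell surface, at 48.8, 39, 81.4 and 49 CPM in HFHS pools and 155, 103, 237 and 370 CPM in SD pools. Every HFHS pool lay below every SD pool, SD pool 4 was highest, and the log2 fold change was −1.99 (SE 0.40). Erlin1, an endoplasmic reticulum protein that binds cholesterol, stood at 0, 0.111, 0 and 0.608 CPM against 13.2, 39.7, 22.5 and 28.2 CPM. Zfp870, a zinc finger protein, stood at 0, 0, 0.831 and 0 CPM against 35.2, 22.2, 8.04 and 38.9 CPM. Both were at or near 0 in HFHS pools and read in each SD pool. Each library had 228 to 633 tested genes at 0, so a 0 at levels like these need not mean absence. The folds given as "at least" in this and the preceding paragraph allow for counting error only. DESeq2 called all 11 of the genes given above, with adjusted p from 1.49e-09 for Arhgap11a to 0.0464 for Rif1, while edgeR called none.

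The diet groups did not overlap at 228 genes (2.35%), with HFHS pools above at 111 (1.14%) and below at 117 (1.2%). That is no more than the 2 of 70 regroupings (2.86%) that separate any gene without ties, so the genes below are given as a description. The gap between the groups was small at most of them: the median distance from the lowest pool of the higher diet to the highest pool of the lower diet was 0.17 in log2 for genes higher in HFHS pools and 0.21 for genes lower. A gap of more than 2-fold was found at 4 genes in the first set and 12 in the second. Unadjusted p was under 0.05 at 37 of 111 and 58 of 117. Genes with a mean under 10 CPM made up 14.4% of those higher and 28.2% of those lower, against 17.4% of all genes tested. Without HFHS pool 2 and SD pool 2, 3 pools a side gave 826 such genes, the smaller number of pools alone making separation more frequent.

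The 10 genes with the largest fold change were taken from the 95 that were higher without overlap at a mean of 10 CPM or more, and Atg9a led them. Rad51ap1, a factor of homologous recombination, stood at 45.6, 11.2, 15 and 19.2 CPM against 0, 7.35, 0 and 0 CPM. Ago3, an Argonaute protein of small RNA silencing, stood at 47.7, 36.1, 39.1 and 30.2 CPM against 1.12, 13.5, 1.61 and 4.49 CPM. Hivep1, a zinc finger factor that binds NF-κB motifs, stood at 20, 41.1, 45.7 and 41.7 CPM against 5.93, 0.69, 3.38 and 17.4 CPM. SD pool 2 came nearest to the HFHS pools at Ago3 and SD pool 4 at Hivep1, and Rad51ap1 was read in 1 SD pool alone. Tom1l2, an adaptor of endosomal traffic, stood at 23.4, 22.1, 34.6 and 46.7 CPM against 0.0588, 3.6, 0.0554 and 11.5 CPM. Shld2, a subunit of the shieldin complex of DNA break repair, stood at 21.4, 17.2, 21 and 25.5 CPM against 2.23, 8.19, 0 and 1.65 CPM. Usp53, a member of the ubiquitin-specific protease family, stood at 31.6, 28.2, 12.8 and 58.7 CPM against 8.93, 0.0986, 7.04 and 3.56 CPM. All 3 were present in every HFHS pool and between 0 and 11.5 CPM in SD pools. Cep72, a centrosome protein, was at 0 in 3 SD pools and at 13.4 CPM in SD pool 4, close below the lowest HFHS pool at 15.1 CPM. C030034L19Rik and Dtwd1 completed the set, with log2 fold changes of 2.90 (SE 1.58) and 2.30 (SE 1.33).

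The 10 largest on the lower side included Cmtm6, Erlin1 and Zfp870. Slx4, the scaffold of structure-specific DNA nucleases, stood at 7.39, 0.61, 17.3 and 15.1 CPM against 43.8, 44.3, 35.3 and 44.6 CPM. Med14, the backbone of the Mediator complex, stood at 27.9, 3.88, 0.104 and 37.7 CPM against 85.3, 54.7, 46.7 and 83.3 CPM. Tnpo1, a nuclear import receptor, stood at 0.161, 8.43, 1.92 and 2.81 CPM against 12.9, 28.3, 9.76 and 26.1 CPM. The SD pools lay close together at Slx4, whereas the HFHS pools of Med14 ran from near 0 to 37.7 CPM. Gtf3c3, a subunit of the RNA polymerase III factor TFIIIC, stood at 0.482, 0.166, 15.4 and 7.37 CPM against 27.7, 21.7, 46.4 and 29.8 CPM. Bbs12, a chaperonin-like protein, stood at 4.29, 0.111, 5.3 and 0 CPM against 17.8, 11.1, 42.4 and 8.68 CPM. At both, each HFHS pool lay below each SD pool and SD pool 3 was highest. Zfp930 and Gdpgp1 had log2 fold changes of −2.28 (SE 1.11) and −3.22 (SE 2.09).

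**Figure D1:**
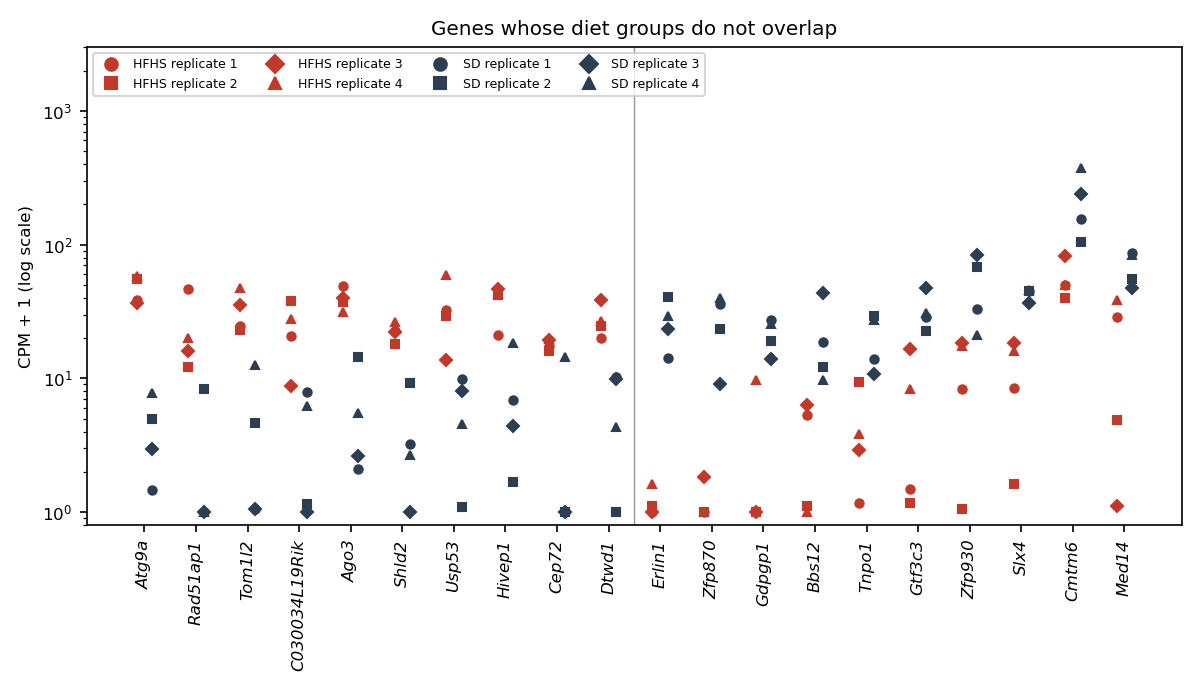
CPM plus 1, on a log axis, of the 10 genes with the largest increase (left of the line) and the 10 with the largest decrease (right) among genes with a mean of 10 CPM or more whose diet groups do not overlap. Each point is 1 pool, HFHS in red and SD in dark blue; Arhgap11a, Pop1 and Rab39b are not drawn because their means are lower.

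A pair of non-coding transcripts and the protein-coding gene AI467606 were also called by DESeq2. Kcnq1ot1, the antisense transcript that silences its imprinted cluster on chromosome 7, stood at 119, 59.3, 77.6 and 115 CPM in HFHS pools and 36.8, 32.7, 29.4 and 32.4 CPM in SD pools. The SD pools were tightly grouped and each lay below every HFHS pool, with a log2 fold change of 1.50 (SE 0.34). AI504432 stood at 34.1, 64.7, 1.71 and 45.1 CPM against 2.88, 2.07, 0.61 and 3.93 CPM, where HFHS pool 3 overlapped the SD pools. AI467606 was lower in each HFHS pool, at 105, 135, 137 and 93.2 CPM against 194, 241, 265 and 222 CPM.

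Most tested members of 2 cell-cycle lists had a log2 fold change above 0, and none passed the test. In the S-phase list, 38 of 43 members were tested, 32 of 38 had a log2 fold change above 0, 5 were higher at unadjusted p under 0.05 and none lower, with an edgeR adjusted p under 0.05 for 0. Without HFHS pool 1, 26 of 38 were above 0, with 2 higher and 1 lower at unadjusted p under 0.05. Without HFHS pool 3, 4 of 39 were higher and 1 lower. Over all genes the main fit had 94 higher and 105 lower of 9714 at that level. It was 77 higher and 199 lower of 10040 without HFHS pool 1, and 88 and 176 of 10023 without HFHS pool 3. The median log2 fold change of the S-phase list was 0.59, against −0.01 over all genes tested. Groups did not overlap at 4 members, all higher, beside 1.14% of all genes. The replicative helicase subunit Mcm5 stood at 203, 88.4, 79.7 and 129 CPM in HFHS pools and 73.1, 47.3, 53.2 and 41.2 CPM in SD pools. The flap endonuclease Fen1, which processes Okazaki fragments, stood at 79.8, 69.1, 98.6 and 99.4 CPM against 49.6, 33.7, 46 and 45.9 CPM. At both genes each HFHS pool lay above each SD pool, with log2 fold changes of 1.22 (SE 0.36) and 0.99 (SE 0.31). Tipin, a fork-protection protein, was also separated, at 143, 119, 128 and 152 CPM against 117, 115, 119 and 38.2 CPM, although SD pool 4 alone was far from the HFHS pools. The last of the 4 was Rad51ap1.

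Other replication genes were higher on average with overlapping pools. Mcm6, another helicase subunit, stood at 322, 223, 230 and 245 CPM against 108, 197, 227 and 144 CPM. Pcna, the sliding clamp of DNA polymerases, stood at 368, 216, 335 and 199 CPM against 284, 141, 211 and 107 CPM. Hells, a chromatin remodeller needed for DNA methylation, stood at 82, 56.8, 17.6 and 55.5 CPM against 23.1, 1.33, 11.3 and 17.8 CPM. For each, HFHS pool 1 was the highest of all 8 libraries. Rrm2, the regulated subunit of ribonucleotide reductase, stood at 261, 10.4, 218 and 26.7 CPM against 23.4, 12.3, 55.9 and 34.7 CPM. Only HFHS pools 1 and 3 exceeded the SD pools there. Slbp, which binds histone mRNA, had a log2 fold change of 0.46 (SE 0.27), and SD pool 4 was its lowest library.

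The list of G2 and M phase was less even. Of 54 members 31 were tested, 26 of 31 had a log2 fold change above 0, 4 were higher at unadjusted p under 0.05 and none lower, and groups were separated at 0. These counts moved with the setting. Without HFHS pool 1, 19 of 31 were above 0 and 1 was higher at unadjusted p under 0.05. The count higher was 1 of 31 without HFHS pool 3, 9 of 38 without HFHS pool 2 and 8 of 38 without SD pool 1. With limma-voom 0 were higher, and looser filters gave 17 of 53 and 19 of 54. Over all genes the main fit had 94 of 9714 higher at that level, limma-voom 196 of 9714 and the looser filters 259 of 12029 and 420 of 14962. Without HFHS pool 1, 2 or 3 it was 77 of 10040, 103 of 10069 and 88 of 10023, and without SD pool 1, 152 of 10066. Most members that the looser filters add were highest in HFHS pool 1 or 3. The median log2 fold change was 0.89. Top2a, the topoisomerase that untangles chromosomes, stood at 151, 27.8, 172 and 39.5 CPM in HFHS pools and 6.99, 4.24, 10 and 30.8 CPM in SD pools. Mki67, which coats mitotic chromosomes and is the usual marker of proliferation, stood at 111, 45.3, 230 and 34.5 CPM against 0.294, 12.5, 27.3 and 37.8 CPM. Birc5, the survivin subunit of the chromosomal passenger complex, stood at 175, 0, 108 and 8.51 CPM against 7.29, 0, 0 and 0 CPM. HFHS pools 1 and 3 were high at all 3 genes, and HFHS pools 2 and 4 lay at or near the SD pools. The log2 fold change was 2.91 (SE 0.79) for Top2a and 2.43 (SE 1.03) for Mki67. Cdk1, the mitotic kinase, stood at 116, 16.7, 71 and 25.1 CPM against 0, 19.3, 13.2 and 4.08 CPM, with HFHS pools 1 and 3 far above the rest. Hmgb2, a chromatin protein abundant in dividing cells, stood at 2366, 799, 1254 and 997 CPM against 993, 771, 996 and 689 CPM. A pair of members that are also used outside mitosis stood lower on average, Smc4 with a log2 fold change of −0.11 (SE 0.27) and Lbr with −0.22 (SE 0.26).

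Members that failed the filter on low counts cannot be widespread, because the filter needs more than 10 counts in 4 libraries. Nusap1, a spindle microtubule protein, stood at 113, 0.0554, 103 and 14.1 CPM in HFHS pools and at 0 in all 4 SD pools. Bub1, a kinase of the spindle checkpoint, stood at 79.7, 0, 19.6 and 0 CPM against 0, 0, 0 and 0.0517 CPM. Gtse1, a microtubule-binding protein of mitosis, stood at 32.3, 0, 29.7 and 0 CPM and at 0 in all SD pools. HFHS pools 1 and 3 held nearly all of these counts. Counting members at 1 CPM or more, a level chosen after the values were seen, the 54 members were present at 52, 25, 46 and 30 in HFHS pools and at 25, 29, 27 and 30 in SD pools. HFHS pools 2 and 4 thus fell in the range of the SD pools, and 16 of 54 members stayed under 1 CPM in all 4 SD pools. The same count over the 43 S-phase members was 39, 33, 35 and 35 against 33, 35, 36 and 31.

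Mean scores over the tested members, in log2(CPM + 1), gave HFHS pool 1 the first place in both lists. The S-phase score was 5.91, 4.61, 5.03 and 5.0 in HFHS pools and 4.51, 4.54, 4.91 and 4.24 in SD pools. The G2 and M score was 6.78, 4.40, 5.92 and 4.87 against 4.44, 4.71, 4.31 and 4.74. HFHS pool 4 lay above SD pool 4 by the G2 and M score but below it by the same score on deposited TPM (3.82 against 3.97), and HFHS pool 2 fell within the SD range in G2 and M. HFHS pool 1 was the highest library for 22 of 38 S-phase and 17 of 31 G2 and M members. Without it the median log2 fold change of the G2 and M list was 0.16, and that of the S-phase list 0.44. Without HFHS pool 2 and SD pool 2, the pools richest in Cd8a, the medians were 1.25 and 0.65. In bulk RNA, more cycling cells in a pool and more of these transcripts per cell cannot be told apart.

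**Figure D2:**
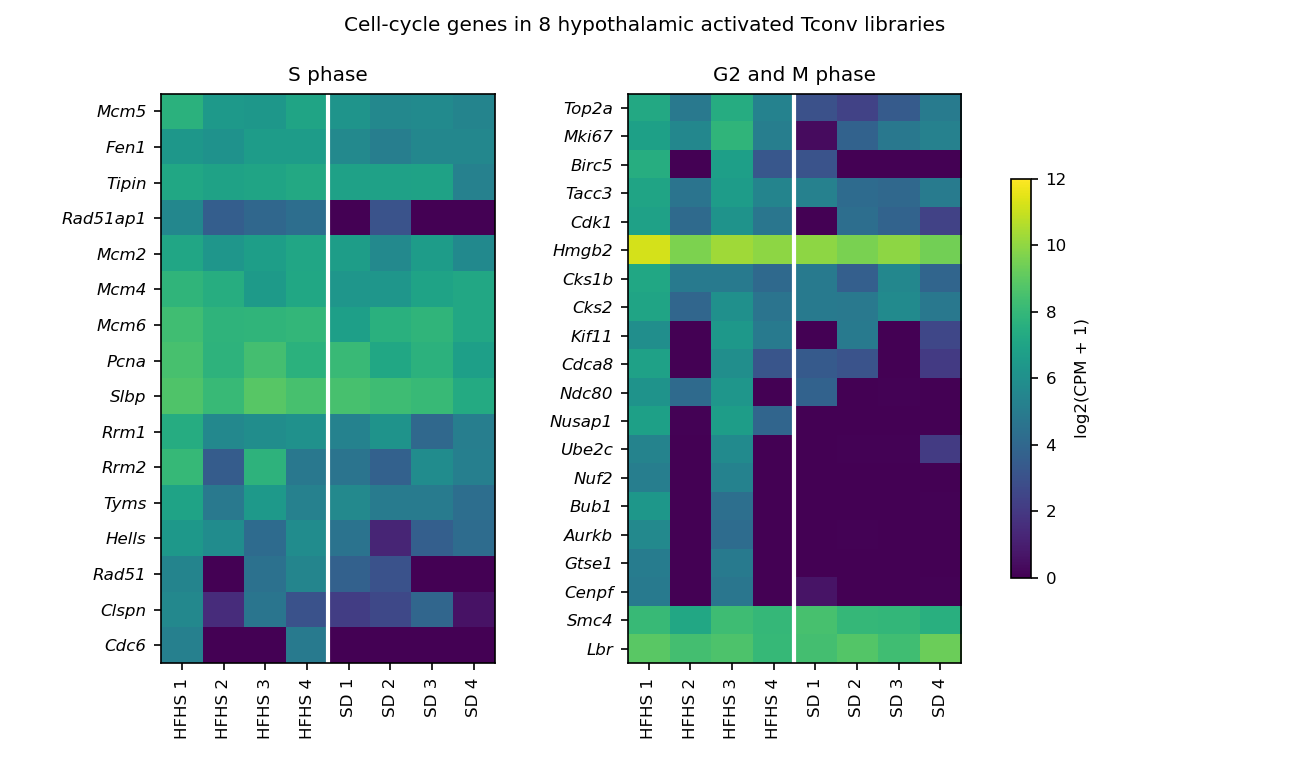
Level in log2(CPM + 1) of 16 S-phase genes and 20 G2 and M genes (vertical) in each of the 8 pools (horizontal), HFHS left of the white line. HFHS pools 1 and 3 are brighter than the rest at most G2 and M genes, while HFHS pools 2 and 4 resemble the SD pools.

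Tregs and rest-brain cells from the same pools were set beside these scores. Their libraries were scaled separately, so only the order within each set can be read. Tregs of the hypothalamus had G2 and M scores over the same genes of 2.36 in the pool of HFHS 1, 6.92 in that of HFHS 2, 2.67 in that of HFHS 3 and 1.95 in that of HFHS 4. The pools of SD 1 and SD 2 scored 2.40 and 2.97 in Tregs. The Treg library of the pool of SD 4 is not read, because its score of Treg genes was 3.59 against 7.13 to 9.54 in the other 7 Treg libraries, which goes against its label. HFHS pool 2 was the lowest HFHS pool for activated Tconv and the highest for Tregs, while SD 1 stood below SD 2 in both. Activated Tconv from the rest of the brain scored 6.01 in the pool of HFHS 3, 5.14 in that of HFHS 4, 6.09 in that of SD 2 and 4.94 in that of SD 4. SD 2 was the highest of the 4 there and the lowest in the hypothalamus, and HFHS 3 stood above HFHS 4 in both.

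The interaction of tissue and diet asked whether the diet difference in the hypothalamus differed from that in the rest of the brain. It was called at 0 (0%) of 11486 genes by edgeR adjusted p, and 584 (5.08%) had an unadjusted p under 0.05. Of 52 G2 and M members tested, 13 were under 0.05, all with the larger HFHS-minus-SD difference in the hypothalamus, and the median interaction was 2.01 in log2. That fit treats the libraries as independent, although 4 pools gave both tissues. With the pool as a replicate block, added after the data were seen, 0 genes were called, 5 of 52 G2 and M members were under 0.05, beside 420 of all 11486 genes, and the median was 1.27, with 2 residual degrees of freedom. In limma-voom 4 of 52 were under 0.05, without the block and with the pool as a random effect, and 0 genes were called. Over all genes 687 were under 0.05 without the block and 678 with it, near the share of the list when both directions are counted. All 5 members with the fixed block, and all 4 in limma-voom, had the larger difference in the hypothalamus. So had 127 of the 420 genes, 260 of the 687 and 259 of the 678. The pool label of SD pool 3, 67_66, matches no other library, so it was left unmatched here and in the comparison with Tregs. It shares its first number with SD pool 2, 67_71, and its last with an SD pool that gave rest-brain and Treg libraries. Whether any mice are shared is not stated. The interaction of strain and diet, against Balb/c hypothalamus, was called at 0 (0%) of 10875 genes, with 493 (4.53%) under 0.05 unadjusted. Of 53 G2 and M members, 9 were under 0.05, all in the direction of a larger difference in C57Bl/6J, with a median of 1.31. Over all genes 243 of 10875 were under 0.05 in that direction. In Balb/c hypothalamus by itself, 42 of 52 G2 and M members had a log2 fold change above 0, with a median of 0.46. In the S-phase list 27 of 41 did, so most members of both lists had the same direction there. Strain and sex cannot be told apart in that comparison. DESeq2 called 174 genes for tissue and 171 for strain. Both interactions reuse the 8 hypothalamic libraries, HFHS pools 1 and 3 included.

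The promoters of the 2 phases differ in sequence, as the RefSeq windows of 250 bases before to 50 bases after the start (GRCm38.p6) show. Windows were found for 31 of 43 S-phase genes (34 windows) and 47 of 54 G2 and M genes (52 windows). Searched on both strands, CCAAT lay in 67.6% of S-phase and 75.0% of G2 and M windows, against 37.4% of all 32851 windows. The CHR motifs TTTGAA or TTCGAA lay in 17.6% of S-phase and 73.1% of G2 and M windows, against 19.2% of all. The E2F motifs TTTGGCGC or TTTCGCGC lay in 20.6% of S-phase and 3.85% of G2 and M windows, against 0.813% of all. CCAAT and a CHR stood together in 59.6% of G2 and M windows and 7.52% of all. A match is a description of letters and no site of binding was measured here. The promoters of Mcm5 and Top2a, the genes with the smallest p in their lists, are shown with matches in capitals, chosen after the values and matches were seen. Mcm5 (chr8:75109259-75109558, plus strand) holds 3 CCAAT matches and 2 E2F matches that overlap each other. Top2a (chr11:99024140-99024439, minus strand) holds 6 CCAAT and 4 CHR matches.
Mcm5 promoter: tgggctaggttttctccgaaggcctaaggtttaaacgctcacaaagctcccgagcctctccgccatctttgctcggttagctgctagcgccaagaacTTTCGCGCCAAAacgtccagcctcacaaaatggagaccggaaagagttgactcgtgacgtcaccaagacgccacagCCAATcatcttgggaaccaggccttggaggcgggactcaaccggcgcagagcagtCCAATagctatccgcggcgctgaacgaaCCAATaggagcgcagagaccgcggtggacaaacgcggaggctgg
Top2a promoter: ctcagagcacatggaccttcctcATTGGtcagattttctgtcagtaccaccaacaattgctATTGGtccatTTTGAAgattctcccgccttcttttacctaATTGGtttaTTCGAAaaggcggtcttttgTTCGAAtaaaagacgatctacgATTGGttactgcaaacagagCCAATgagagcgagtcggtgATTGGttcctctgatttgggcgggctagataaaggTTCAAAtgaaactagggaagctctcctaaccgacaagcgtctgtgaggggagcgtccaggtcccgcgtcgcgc

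Transcript levels of T-cell receptor signalling genes differed little, and signalling itself was not measured. Of 25 members of the receptor complex and its proximal kinases, all tested, 12 were above 0 and the median log2 fold change was −0.02. At unadjusted p under 0.05, 1 was higher, beside 94 of all 9714 genes. Vav1, a guanine nucleotide exchange factor downstream of the receptor, stood at 245, 247, 292 and 296 CPM in HFHS pools and 131, 210, 172 and 206 CPM in SD pools. Each HFHS pool was above each SD pool, with a log2 fold change of 0.59 (SE 0.20). The kinase Lck stood at 1606, 1726, 1569 and 1547 CPM against 1815, 1872, 1640 and 1669 CPM and overlapped.

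Costimulatory receptors were led by Icos, which sustains helper T cells in tissue. Icos stood at 538, 509, 471 and 302 CPM in HFHS pools and 197, 310, 300 and 223 CPM in SD pools. HFHS pools 1 to 3 exceeded every SD pool and HFHS pool 4 fell among them, with a log2 fold change of 0.82 (SE 0.23). Ctla4, an inhibitory receptor induced on activation, stood at 245, 41.4, 53.9 and 64.4 CPM against 94.2, 58.1, 33 and 91.9 CPM, HFHS pool 1 standing far above the rest. Of 21 checkpoint and costimulation genes tested, 14 were above 0, and 9 of 21 without HFHS pool 1. In the main fit 1 was higher at unadjusted p under 0.05, beside 94 of all 9714 genes.

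Tested cytokine genes were mostly below 0 in log2 fold change, and none passed the test. Of 30 listed, 19 were tested, 6 of 19 were above 0, 1 was higher and 0 lower at unadjusted p under 0.05, and the median log2 fold change was −0.35. With looser filters 11 of 25 were above 0 and the median was −0.25. Without HFHS pool 1, 3 of 19 were above 0, with 0 higher and 2 lower at unadjusted p under 0.05. Over all genes that fit had 77 higher and 199 lower of 10040, and the main fit 94 and 105 of 9714. Summed over all listed genes, HFHS pool 1 was the highest library at 3516 CPM and the groups overlapped. The score was 5.71, 5.16, 5.61 and 5.55 in HFHS pools and 5.79, 5.87, 5.93 and 6.02 in SD pools. No pool overlapped between the diets in this score, 1 list of 28, where 2 of 70 regroupings (2.86%) separate any score, and by deposited TPM HFHS pool 1 (5.51) lay above SD pool 1 (5.47). Tnf, an inflammatory cytokine of activated T cells, stood at 188, 87.1, 116 and 97.7 CPM against 183, 155, 132 and 152 CPM. Lif, a cytokine of the IL-6 family, stood at 2.79, 0, 3.9 and 0 CPM against 9.99, 7.15, 7.26 and 27.4 CPM. Lif was low in all pools but lower in each HFHS pool, while Tnf overlapped because of HFHS pool 1. Il16, a CD4 ligand, had a log2 fold change of −0.56 (SE 0.29). In the opposite direction Tnfsf11, which encodes RANKL, stood at 84.6, 52.8, 52.4 and 91.4 CPM in HFHS pools and 47.2, 32.4, 31.5 and 44.9 CPM in SD pools. Each HFHS pool was above each SD pool, with a log2 fold change of 0.85 (SE 0.37).

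Ifng, the Th1 effector cytokine, stood at 836, 406, 506 and 355 CPM against 451, 254, 251 and 751 CPM, so HFHS pool 1 and SD pool 4 led their groups. Cxcr3, the chemokine receptor of Th1 cells, stood at 979, 1223, 992 and 967 CPM against 1039, 1116, 1125 and 901 CPM. Cxcr6, a receptor of tissue-resident T cells, stood at 3045, 2760, 2735 and 2419 CPM against 2327, 3178, 2400 and 2188 CPM. Both receptors were abundant and even across all pools. Of 29 Th1 and cytotoxic genes tested, 19 were above 0 and 0 were under 0.05 in either direction. Tbx21, the Th1 lineage factor, stood at 74, 99.2, 16.6 and 57.9 CPM against 98.9, 42.1, 44.1 and 127 CPM, with HFHS pool 3 lowest. Tlr4, the receptor of bacterial lipopolysaccharide, did not pass 0.0536 CPM in any pool.

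Among migration genes single members stood out, and none passed the test. Gpr183, the oxysterol receptor that guides lymphocytes, stood at 149, 264, 244 and 167 CPM against 87.5, 172, 131 and 116 CPM, with a log2 fold change of 0.70 (SE 0.27). Itga4, the α4 integrin chain used to cross brain vessels, stood at 229, 400, 302 and 385 CPM against 199, 169, 177 and 312 CPM, with a log2 fold change of 0.62 (SE 0.26). HFHS pools were mostly above SD pools at both, and SD pool 4 or SD pool 2 overlapped. Ccr2, a receptor of inflammatory chemokines, stood at 189, 160, 191 and 298 CPM against 221, 232, 224 and 529 CPM, SD pool 4 being far highest. Of 18 chemokine and receptor genes tested 9 were above 0, and of 16 integrin and adhesion genes 6; without SD pool 4, 11 of these 16 were above 0 and the median turned from −0.23 to 0.14.

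Interferon-stimulated genes followed single pools. Of 44 tested, 11 were above 0, none was under 0.05 unadjusted in either direction, and the median log2 fold change was −0.21. These values moved with single pools. Without HFHS pool 2, 6 of 44 were lower and 0 higher at unadjusted p under 0.05, with a median of −0.32. That fit had 185 lower and 103 higher of all 10069 genes. Without SD pool 2 as well 5 were lower, beside 117 of 9785. Members above 0 numbered 17 of 45 without HFHS pool 1 or SD pool 2, and 17 of 44 without SD pool 4. The median was −0.12 without SD pool 4 and −0.11 without HFHS pool 4. Ifit1, an interferon-induced RNA-binding protein, stood at 112, 600, 106 and 265 CPM against 444, 388, 154 and 641 CPM. Ifit3, which stabilises it, stood at 64.5, 662, 57.1 and 293 CPM against 447, 373, 153 and 441 CPM. HFHS pool 2 was the highest HFHS pool at both genes and HFHS pools 1 and 3 the lowest of all 8. The list score was 6.40, 7.40, 6.58 and 6.70 in HFHS pools and 6.95, 7.24, 6.48 and 7.52 in SD pools. Usp18, the negative regulator of interferon receptor signalling, stood at 50.4, 164, 55.3 and 102 CPM against 170, 191, 75.2 and 238 CPM.

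Immediate early genes differed by pool more than by diet. Their score was 8.14, 7.18, 7.63 and 6.46 in HFHS pools and 6.96, 6.36, 6.61 and 8.07 in SD pools, with HFHS pool 1 and SD pool 4 highest. Nr4a1, an orphan receptor induced by antigen, stood at 418, 15.7, 21.7 and 0 CPM against 19, 0.542, 7.15 and 155 CPM. Tnfaip3, an inhibitor of NF-κB that is induced with it, stood at 2084, 407, 985 and 174 CPM against 569, 379, 126 and 1451 CPM. Egr1, another gene of receptor signalling, stood at 970, 362, 164 and 284 CPM against 567, 205, 152 and 1200 CPM. HFHS pool 1 and SD pool 4 were the highest of their diets at all 3 genes. Of 26 members tested 19 were above 0, or 13 of 27 without SD pool 2, and 0 were under 0.05 unadjusted.

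Some cytokine and helper genes stood far higher in 1 or 2 pools than in the rest. Il21, the cytokine of follicular helper cells, was at 138 CPM in HFHS pool 1 and 24.8 CPM in SD pool 3 and at 0 elsewhere. Il10, an inhibitory cytokine, was at 43.3 CPM in HFHS pool 1 and at most 4.8 CPM elsewhere. Il17a, the Th17 cytokine, was at 52.5 CPM in HFHS pool 3 and 9.54 CPM in SD pool 3. Ccr6, a receptor of Th17 cells, was found in the same 2 pools at 26.5 and 25.3 CPM. Ccl1, a chemokine of activated T cells, was at 74.6 CPM in SD pool 4 and at 0 in the other 7 libraries. Gzmb, which encodes granzyme B, stood at 174, 1406, 99.9 and 98.3 CPM against 253, 203, 215 and 393 CPM, and HFHS pool 2, a pool rich in Cd8a, was far above the rest.

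**Figure D3:**
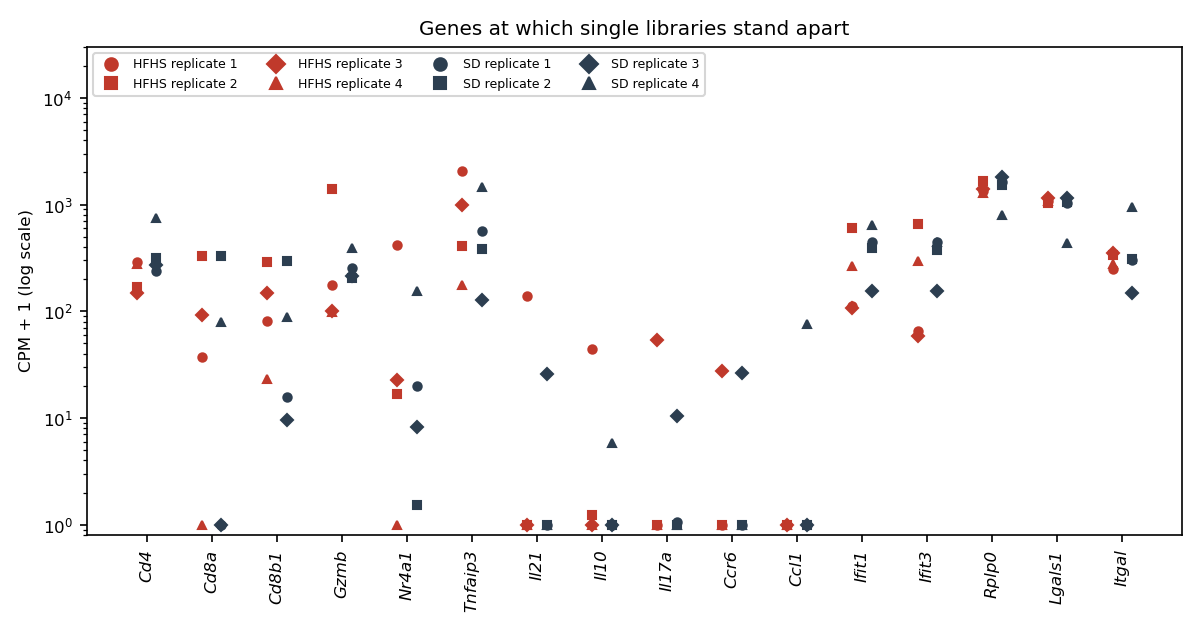
CPM plus 1, on a log axis, of 16 genes at which 1 or 2 pools stand apart; each point is 1 pool, HFHS in red and SD in dark blue. Cd8a is highest in HFHS pool 2 and SD pool 2, Gzmb in HFHS pool 2, Il21 and Il10 in HFHS pool 1, and Cd4 and Itgal in SD pool 4.

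Metabolic genes were scattered around 0. Fasn, the fatty acid synthase, stood at 5.47, 2.5, 10.9 and 5.09 CPM in HFHS pools and 13.6, 10.1, 57 and 52.8 CPM in SD pools, SD pools 3 and 4 being highest and HFHS pool 3 overlapping SD pool 2, with a log2 fold change of −2.48 (SE 0.90). Idi1, an enzyme of the mevalonate pathway, stood at 48.1, 69, 26.2 and 135 CPM against 42.5, 28.7, 20.7 and 20 CPM, HFHS pool 4 being highest, with a log2 fold change of 1.31 (SE 0.54). The 2 genes belong to 1 list of cholesterol and fatty acid synthesis, in which 13 of 28 members were above 0 and the median was −0.02. Slc2a1, the glucose transporter GLUT1, stood at 23.3, 10.7, 16.8 and 24.1 CPM against 54.3, 23.2, 31 and 79.1 CPM. HFHS pools 1 and 4 lay just above SD pool 2, and the log2 fold change was −1.33 (SE 0.58). Glycolysis had 9 of 20 members above 0, the respiratory chain 31 of 50, and fatty acid uptake and oxidation 6 of 21; without SD pool 4 the respiratory chain had 13 of 50 and its median turned from 0.06 to −0.11. Acadvl, which starts the oxidation of long-chain fatty acids, was separated, at 90.9, 126, 87.2 and 110 CPM against 85.1, 63.9, 26.6 and 80.9 CPM. The mTOR list had 14 of 21 above 0, and 9 of 21 without SD pool 4; its scaffold Rptor stood at 1.98, 13.8, 1.2 and 0 CPM against 9.75, 17, 27.1 and 27.8 CPM.

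Of the innate signalling and TGF-β lists, 1 of 20 and 1 of 14 tested members were without overlap, beside 2.35% of all genes. Myd88, the adaptor of Toll-like and IL-1 receptors, stood at 32.6, 88.6, 66.5 and 61.2 CPM in HFHS pools and 121, 114, 110 and 91.6 CPM in SD pools. Each HFHS pool was below each SD pool, with a log2 fold change of −0.81 (SE 0.33), although 12 of 20 members of its list were above 0. That count was 8 of 20 without SD pool 1, where the median turned from 0.05 to −0.12, and 9 of 20 without HFHS pool 4. Skil, a repressor of SMAD signalling that TGF-β itself induces, stood at 188, 88.9, 79.4 and 85.8 CPM against 61.2, 27.6, 58.5 and 64.8 CPM. Each HFHS pool was above each SD pool, with a log2 fold change of 1.06 (SE 0.39), in a list with 7 of 14 members above 0. Among metabolic receptors, Nr3c1, the glucocorticoid receptor, stood at 277, 165, 164 and 124 CPM against 255, 241, 218 and 328 CPM.

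Genes with short transcripts set SD pool 4 apart. It was the lowest library for 50 of 51 cytosolic ribosomal protein genes, and by TPM for 43 of 51. The ribosomal score was 9.07, 9.36, 9.22 and 9.30 in HFHS pools and 9.46, 9.25, 9.56 and 8.36 in SD pools. Rplp0, a stalk protein of the large subunit, stood at 1353, 1656, 1392 and 1289 CPM against 1628, 1533, 1794 and 800 CPM. Lgals1, the galectin-1 gene, stood at 1082, 1033, 1152 and 1077 CPM against 1038, 1058, 1154 and 434 CPM. Both were about level in 7 libraries and low in SD pool 4. With SD pool 4 the median log2 fold change of the ribosomal list was 0.03, and without it −0.19.

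**Figure D4:**
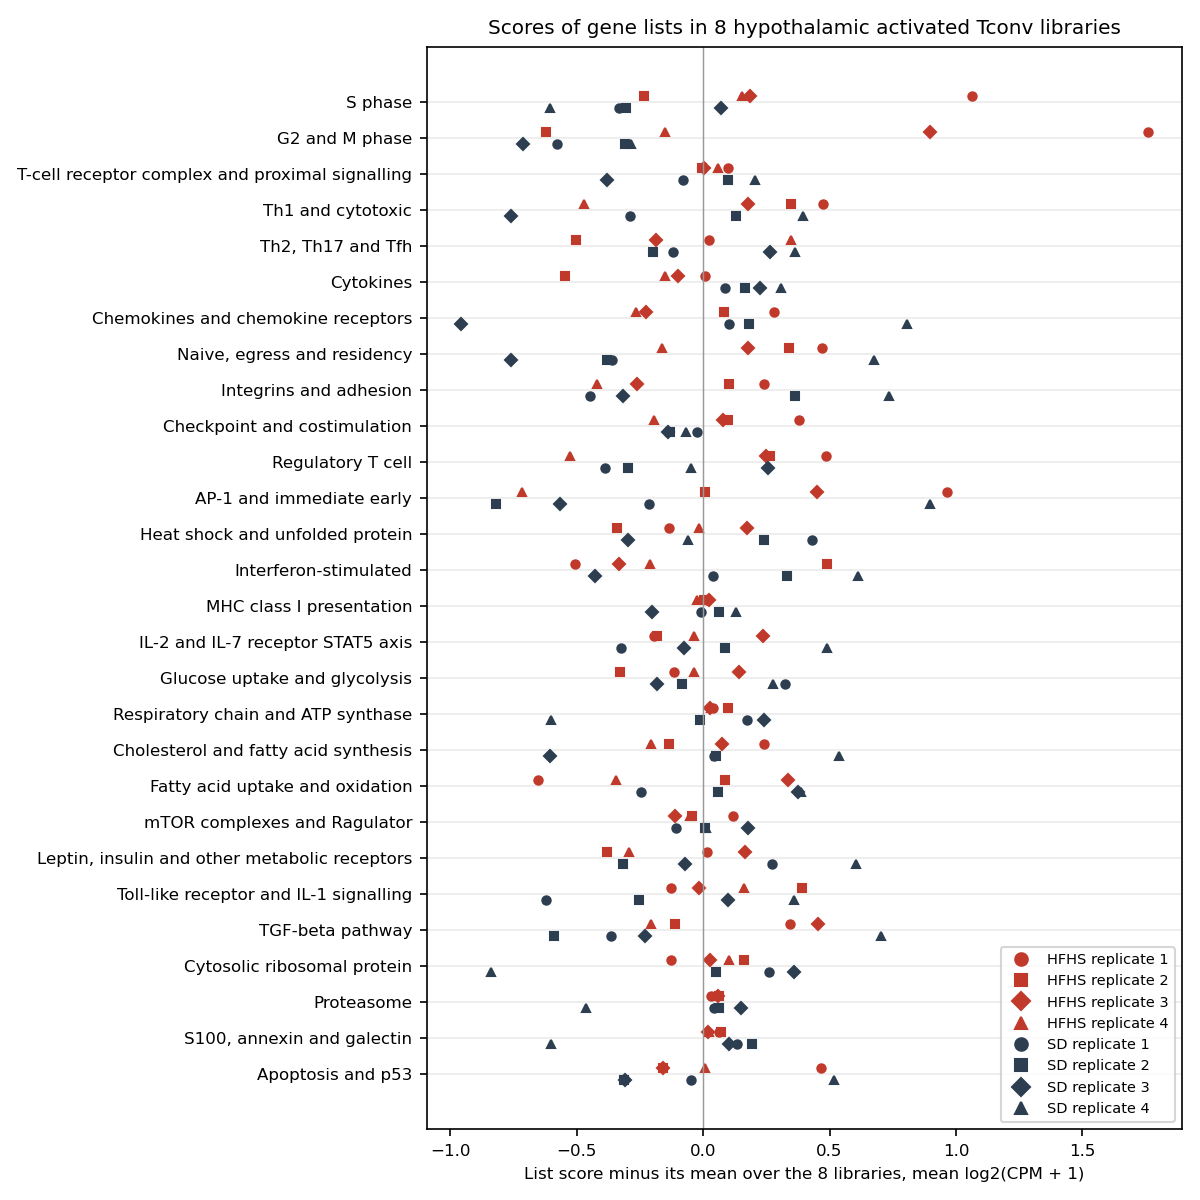
Score of each of 28 gene lists, mean log2(CPM + 1) of its tested members, minus its mean over the 8 pools; HFHS in red, SD in dark blue, 1 symbol per replicate. HFHS pool 1 lies far right for both cell-cycle lists and SD pool 4 far left for ribosomal, respiratory chain, proteasome and S100 lists.

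The spread between HFHS pools was not larger than that between SD pools. The standard deviation of log2(CPM + 1) was larger among HFHS pools at 4242 genes (43.7%), with a median of 0.668 among HFHS and 0.716 among SD pools. Without SD pool 4 it was larger among HFHS pools at 5059 genes (52.1%). At genes of 300 CPM or more the medians were 0.177 and 0.369. Ribosomal protein genes varied more among SD pools at all 51 members, and G2 and M genes varied more among HFHS pools at 18 of 31, with medians of 1.30 and 0.88. The genes with the largest standard deviation among HFHS pools at 10 CPM or more included Pclaf, a PCNA-binding protein, at 253, 0, 216 and 47.3 CPM against 11.8, 0, 36.6 and 0 CPM. Prc1, a spindle midzone protein, stood at 244, 0, 66.9 and 10.4 CPM against 25.5, 26.6, 72.3 and 34.3 CPM. Cxcl10, an interferon-induced chemokine, stood at 42.9, 185, 0 and 0 CPM against 21.8, 20.7, 0 and 241 CPM. HFHS pools 1 and 3 were high at the first of these 3, HFHS pool 1 at the second and HFHS pool 2 at the third. Gm18853, Eif3j1, Amd2 and Zfp729a were also in this set and have close copies in the genome, so reads may be shared between copies.

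Across genes, Spearman's rank correlation between libraries ran from 0.766 to 0.845, with a median of 0.819 within and 0.810 between diets; genes are not independent replicates. The first principal component held 18.9% of the variance and set SD pool 3 apart at 115, where the next was 8.13. The second held 15.5% and separated HFHS pool 1 at 83.0 from HFHS pool 2 at −67.7. SD pool 4 was the highest library by more than 2-fold at 212 genes, the others at 46 to 86. SD pool 3 was the lowest library by more than 2-fold at 442 genes, the others at 144 to 307. It also had 633 tested genes at 0, where SD pool 4 had 228.

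Markers of other brain and blood cells differed in level between cell types. The microglial markers Tmem119, Sall1, Siglech, Csf1r and C1qa were at 0 in all 8 libraries. Of 13 macrophage and monocyte markers 7 were at 0, among them Lyz2, Cd14 and Adgre1, and Ly6c2, which T cells also express, made up most of the sum of 491 to 1084 CPM. Neutrophil markers summed to at most 0.111 CPM, neuronal markers to 12.3 CPM and astrocyte and tanycyte markers to 27.0 CPM. Oligodendrocyte markers summed to 224 to 553 CPM, led by Cnp, with Mog, Mag and Mobp at 0. Endothelial and mural markers summed to 21.6 to 102 CPM, led by Ly6c1, and B-cell markers, led by Bank1, to at most 30.3 CPM in HFHS pool 4. The 2 CD8 markers summed to 117, 615, 239 and 22.3 CPM in HFHS pools and 14.8, 622, 8.65 and 166 CPM in SD pools. Natural killer and innate lymphoid markers summed to 90 to 267 CPM, led by the receptor gene Klrk1, with Ncr1, Kit and Gata2 at 0. HFHS pool 2 and SD pool 2 had the largest sums for both of these last lists. The part of such cells in the differences above was not tested. For flow cytometry of brain CD4+ T cells, the study excluded cells bearing markers that include CD8a and CD14. The gate that its methods state for these libraries does not name those markers.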

How the data were processed

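Salmon estimated counts (NumReads) and TPM were deposited by the authors per RefSeq transcript for each library, made from SMARTer mRNA libraries sequenced on NovaSeq with nf-core/rnaseq against mm10. Both were summed over the transcript names of each gene (98.9% of 35034 names matched), and estimated counts were rounded. Genes needed more than 10 counts in at least 4 of 8 libraries. The test was edgeR 4.0.16 quasi-likelihood with TMM, two-sided, Benjamini-Hochberg over all genes, in R 4.3.3. Alternatives were DESeq2 1.42.0 without independent filtering, its size factors, limma 3.58.1 voom with quality weights, other filters, all 16 hypothalamic libraries, library totals, deposited TPM, another pseudocount and leaving out libraries. Python 3.11.15 with numpy 2.4.6, scipy 1.17.1, pandas 2.3.3 and matplotlib 3.10.9 made summaries and exact tests over 70 regroupings. A fold against a group at 0 is a lower bound from a floor of 3 counts per library, which covers counting error only. Named genes were the 10 with the smallest p, the 10 largest separated increases and decreases at a mean of 10 CPM or more, the 2 of smallest p in each list, the 10 with the largest spread among HFHS pools, label markers, genes the study discusses, and further list members chosen by role after the values were seen. The fits were also tested on simulated data. The members and lists were chosen with earlier results of these data known.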

Additional observations from a re-analysis of the deposited data

Results flagged for a closer look

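Among 4 values, 1 value far from the other 3 was looked for with Dixon's ratio, the gap to the nearest value over the range, past a critical value of 0.83 at the 0.05 level. It was past it in 25 of 244 groups of pools, where chance gives about 1 in 20 groups, and some genes were named because 1 pool stood apart. Among list scores, the S100, annexin and galectin score of SD pool 4 was 7.93 against 8.63 to 8.72 (ratio 0.89). The ratio was 1, all other pools of the diet being at 0, for Birc5 in SD pool 1, Il10 and Ccl1 in SD pool 4, Ccr6 in HFHS pool 3 and SD pool 3, Il17a in HFHS pool 3, Il21 in HFHS pool 1 and SD pool 3, Rad51ap1 in SD pool 2 and Zfp870 in HFHS pool 3. Against pools at 0 any value gives 1: Bub1 in SD pool 4 and Phlpp2 in HFHS pool 1 lay under the level of 3 counts and are not taken as standing apart. Il17a in SD pool 3 gave 0.976 and Il10 in HFHS pool 1 gave 0.947. High in 1 pool were also Ccr2 in SD pool 4 (0.948), Cxcr3 in HFHS pool 2 (0.891), Rif1 in HFHS pool 4 (0.885) and Skil in HFHS pool 1 (0.87). Low in 1 pool were Tipin (0.966) and Lgals1 (0.892) in SD pool 4, Slx4 (0.922) and Ifit3 (0.831) in SD pool 3, Skil in SD pool 2 (0.88) and Hivep1 in HFHS pool 1 (0.871). What set these pools apart was not tested.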

How the results depend on the processing

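The count of genes called stayed at 0 with DESeq2 size factors, both other filters, limma-voom, all 16 hypothalamic libraries and each library left out, and was 14 with DESeq2. The tissue interaction was called at 174 genes and the strain interaction at 171 with DESeq2; leaving out 1 library gave 0 to 2 (2 without HFHS pool 1) and 0 to 1 (1 without HFHS pool 1 or SD pool 3). Genes without overlap numbered 179 to 256 under other scalings, deposited TPM and filters. With 1 library less they numbered 465 to 553, 223 to 275 higher and 240 to 278 lower, and 826, 418 higher and 408 lower, without the 2 libraries highest in Cd8a, a setting chosen after seeing the data; fewer pools separate more often by construction. The larger spread among HFHS pools was found at 3884 to 5059 genes with 1 library left out, a setting also added after seeing the data. With 1 library left out, the median of the S-phase list ran from 0.44 to 0.72 and that of the G2 and M list from 0.16 without HFHS pool 1 to 1.43 without HFHS pool 4. The G2 and M median was 0.50 with limma-voom, 1.76 and 1.99 with looser filters and 1.99 with all 16 hypothalamic libraries, where more members pass the filter. Of 28 lists, 17 changed the sign of their median when 1 library was left out. Among 26 genes with a printed fold change, 2 turned: Smc4 ran from −0.24 to 0.10 with 1 library left out, turning without SD pool 1 or HFHS pool 2, and was 0.0569 without the 2 libraries highest in Cd8a. Lbr ran from −0.38 to 0.0136, turning without SD pool 4. The cause was not tested. No paired analysis was possible because the diet groups share no pool. For the tissue interaction 4 pools gave both tissues, and the replicate block, as fixed effect in edgeR or as random effect in limma-voom, both added after seeing the data, left the count of calls at 0; the correlation within pools was −0.0141. The 4 pools a side limit every comparison. Cd8a content was unequal between pools, and leaving out the 2 highest libraries kept the calls at 0 and turned 1 of the 26 genes.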

Other observations

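Further gene lists had no member with an edgeR adjusted p under 0.05. Of 20 heat shock and unfolded protein genes, 6 were above 0 in log2 fold change, with a median of −0.08. Hsp90ab1, a cytosolic chaperone, stood at 1298, 1109, 1190 and 964 CPM in HFHS pools and 1628, 1496, 1259 and 1075 CPM in SD pools, and the groups overlapped. Of 16 genes of the IL-2 and IL-7 receptor axis 5 were above 0, with a median of −0.21. Il2rb, the shared β chain of the IL-2 and IL-15 receptors, stood at 606, 380, 728 and 541 CPM against 711, 614, 703 and 1378 CPM, and SD pool 4 was far highest. Of 20 MHC class I presentation genes 12 were above 0, with a median of 0.06.

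Of 31 proteasome genes 19 were above 0, with a median of 0.04, and Psmd12, a subunit of the regulatory cap, was separated at 193, 196, 260 and 221 CPM against 180, 164, 174 and 111 CPM. Of 22 apoptosis and p53 genes tested 14 were above 0. Trp53inp1, a p53 target, stood at 276, 220, 121 and 159 CPM against 30.7, 97, 178 and 123 CPM, with HFHS pools 1 and 2 highest and SD pool 1 lowest. Klf2, which drives egress from tissue, stood at 191, 173, 298 and 158 CPM against 123, 63.2, 142 and 203 CPM. Of 24 genes of naive state, egress and residency 15 were above 0, with a median of 0.22. Without SD pool 4 it was 21 of 24, with a median of 0.51. Of 12 tested genes of Th2, Th17 and follicular helper cells 5 were above 0, of 10 Treg genes 8, of 10 metabolic receptor genes 4, and of 16 S100, annexin and galectin genes 10. Gata3, the Th2 lineage factor, stood at 120, 89.6, 62.8 and 56.1 CPM against 75.2, 108, 94.1 and 264 CPM, SD pool 4 being highest. These counts moved with single pools. Without SD pool 4, 10 of 31 proteasome, 5 of 16 S100, annexin and galectin, 8 of 12 Th2, Th17 and follicular helper and 8 of 16 IL-2 and IL-7 axis genes were above 0. Without HFHS pool 1, 4 of 10 Treg genes were, and without SD pool 3, 2 of 20 heat shock and unfolded protein genes.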
